A study of Mus musculus with 6 samples.

Results

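Chromatin accessibility around 33 forkhead genes was compared between the posterior second heart field (pSHF) and the atria (HT) of the mouse embryo. The genes were chosen by name, with 10 other forkhead genes kept apart, and a peak was assigned to them by position alone. It belonged to a gene if that gene had the nearest protein-coding gene body in mm10, within 100 kb of the peak summit. The 33 genes, of 21631 protein-coding genes, held 130 of the 44018 peaks of the pSHF list and 121 of the 49267 peaks of the HT list. The pSHF is a progenitor field dorsal to the heart that supplies cells to its venous pole. Both tissues were dissected from wild-type (WT) CD1 embryos, an outbred strain, at day 10.0 of development (E10.0) and pooled, and 3 samples per tissue were profiled by ATAC-seq, which inserts sequencing adapters into accessible DNA with the Tn5 transposase. Strain, genotype and age are thus the same in both groups. One list of peaks per tissue was analysed, so no value carries a spread between samples and no difference between the tissues was tested.

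Forkhead (Fox) proteins are transcription factors that bind DNA through a winged-helix domain, and they are sorted by letter into subfamilies. FoxD, FoxB and FoxE genes are short, mostly developmental regulators that are switched on in restricted territories. FoxO factors are broadly present and leave the nucleus when the kinase Akt phosphorylates them downstream of insulin and growth factor receptors, while FoxP factors form dimers and mostly repress transcription, with roles in heart, lung and brain.

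Peaks that met one from the second tissue's list, with 1 bp in common or more, are termed shared. The remainder are termed restricted, which means that no peak was listed there in the second tissue. The read depth of the samples is not given in the files used here. In such bulk tissue, a site accessible in fewer cells and a site less accessible in each cell cannot be told apart. Marker genes of the tissues were counted in the same way. At 7 atrial cardiomyocyte genes, 2 restricted peaks were of the pSHF list and 23 of the HT list, and at 6 posterior second heart field genes the numbers were 26 and 9. The sums did not hold for each gene. Gas1 (11 and 0) and Foxf1 (7 and 1) held most of the pSHF sum, Isl1 (2 and 2) and the atrial gene Tnni1 (2 and 2) were even, and Tbx5 (4 and 6) had more in the HT list. Markers of other cells that a dissected piece could hold are read against the 39.3% of restricted peaks around all protein-coding genes that were pSHF-restricted. Foregut endoderm had 19 (pSHF) and 10 (HT) over 6 genes and somite 14 and 5 over 5 genes. Endothelium had 7 and 24 over 4 genes (22.6% pSHF-restricted) and erythroid cells 0 and 11 over 5 genes. Neural tube, with 3 and 7 over 4 genes (30.0%), lay nearer to that share, and 2 of its 4 genes were even. The part of these cells in the counts at the forkhead genes was not tested.

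The forkhead genes held restricted peaks of both tissues in nearly equal number. Of the 130 pSHF peaks, 65 were restricted and 65 shared, and of the 121 HT peaks, 62 were restricted and 59 shared. The restricted share of the pSHF peaks had an exact Clopper-Pearson 95% interval of 41.1% to 58.9%, where 31.8% of all pSHF peaks assigned to a protein-coding gene were restricted. It was 51.2% of the HT peaks (42.0 to 60.4), against 43.7% of all assigned HT peaks. These intervals cover counting error over peaks only. Of the 127 restricted peaks at the 33 genes, 51.2% were pSHF-restricted (42.2 to 60.1), against 39.3% around all protein-coding genes. With peaks under a −log10 q of 5 removed from both lists the pSHF-restricted share was 30.4%, against 22.2% around all genes, and with each peak given to the nearest gene of any type it was 44.0%, against 40.3%. These comparisons have no test across embryos.

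The stretch of genome assigned to the 33 genes measured 4.36 Mb. It held 14.9 pSHF-restricted and 14.2 HT-restricted peaks per Mb, where the stretch assigned to all protein-coding genes held 6.89 and 10.6. Shared peaks were as dense there as elsewhere, at 14.9 per Mb in the pSHF list and 13.5 in the HT list, against 14.8 and 13.7. The density of restricted peaks was thus above that of all genes in both lists, and by a wider margin in the pSHF.

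Of the 33 genes, 29 had a peak. More pSHF-restricted than HT-restricted peaks lay at 11 genes (33.3%), against 15.0% of all protein-coding genes. More HT-restricted peaks lay at 8 (24.2%), against 29.3%. This order depended on the processing. When each peak went to the nearest gene of any type, 8 genes had more pSHF-restricted and 12 more HT-restricted peaks. With peaks under a −log10 q of 5 removed from both lists, the counts were 6 and 10. The other alternatives described below kept more genes on the pSHF side, for example 10 against 9 within 50 kb. At 5 genes, Foxb2, Foxi1, Foxk1, Foxm1 and Foxp4, both lists had the same number of restricted peaks, and Foxd4, Foxh1, Foxi2, Foxi3 and Foxo4 had shared peaks alone. A restricted peak of either list was thus present at 24 genes, where 50.6% of all protein-coding genes had one. The median difference between the lists was 0 at the 33 genes and 0 over all protein-coding genes. A difference of 2 or more toward the pSHF was found at 8 genes, where 4.98% of all protein-coding genes had one, and toward the atria at 5, where 12.9% had one. The 33 genes had a median of 2 restricted peaks of both lists together, against 1 over all protein-coding genes, so this background is not matched to them. The 8 genes include the neighbours Foxd2 and Foxe3. Restricted peaks of the pSHF list alone occurred at 8 genes and of the HT list alone at 4, while 12 genes had both kinds. The backgrounds for those 2 counts were 10.2% and 20.0% of genes.

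**Figure D1:**
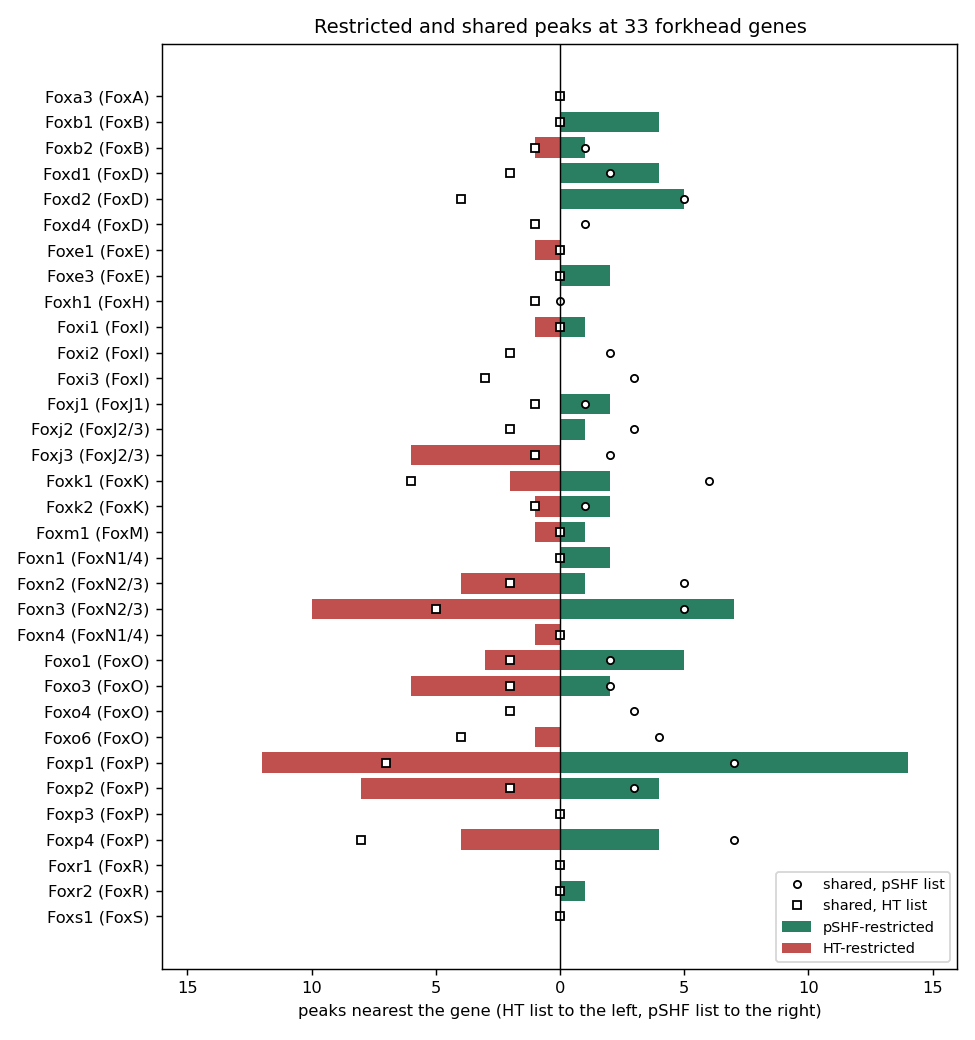
Number of peaks nearest each of the 33 forkhead genes. Bars to the right count pSHF-restricted and bars to the left HT-restricted peaks, open circles and squares count shared peaks of each list, and Foxd1, Foxd2 and Foxb1 have bars on the pSHF side alone while Foxj3 has one on the HT side alone.

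Foxd1 and Foxd2 had restricted peaks of the pSHF list alone. Foxd4 had no restricted peak, and Foxd3, counted with the other forkhead genes, had 0 of the pSHF list and 1 of the HT list. Over Foxd1, Foxd2 and Foxd4 9 restricted peaks were of the pSHF list and 0 of the HT list, beside 8 shared pSHF and 7 shared HT peaks. Foxd1 marks stromal progenitors of the kidney, and Foxd2 is expressed in mesenchyme. Both had a promoter peak in each list, and 8 of their 9 restricted peaks lay between genes. With genes of any type in place of protein-coding genes, 7 of the 9 went to noncoding neighbours such as Gm12830 and Gm33655. With peaks under a −log10 q of 5 removed from both lists the FoxD difference fell from 9 to 4. Markers of somite, another mesodermal tissue (14 and 5), and of foregut endoderm (19 and 10) had more restricted peaks in the pSHF list as well. Their part in the FoxD counts was not tested.

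The promoters of Foxd1 and Foxd2 are shown here beside those of Foxj3 and Foxo3, at which HT-restricted peaks were in the majority, because all 4 lay under shared peaks while the restricted peaks around them differed in side. Each line gives the 250 bases before the annotated start, 5′ to 3′ on the strand of the gene, from RefSeq in build GRCm38.p6, whose coordinates are those of mm10. Capitals mark bases that lay inside a peak of both lists. The windows are chr13:98353995-98354244 (plus strand) for Foxd1, chr4:114908899-114909148 (minus) for Foxd2, chr4:119539411-119539660 (plus) for Foxj3 and chr10:42276696-42276945 (minus) for Foxo3.
Foxd1: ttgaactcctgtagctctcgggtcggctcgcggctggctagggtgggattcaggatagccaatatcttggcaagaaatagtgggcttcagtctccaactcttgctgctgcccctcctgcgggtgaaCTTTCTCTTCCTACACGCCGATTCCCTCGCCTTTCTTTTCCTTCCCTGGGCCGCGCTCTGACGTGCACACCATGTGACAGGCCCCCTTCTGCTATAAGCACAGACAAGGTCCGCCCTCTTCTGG
Foxd2: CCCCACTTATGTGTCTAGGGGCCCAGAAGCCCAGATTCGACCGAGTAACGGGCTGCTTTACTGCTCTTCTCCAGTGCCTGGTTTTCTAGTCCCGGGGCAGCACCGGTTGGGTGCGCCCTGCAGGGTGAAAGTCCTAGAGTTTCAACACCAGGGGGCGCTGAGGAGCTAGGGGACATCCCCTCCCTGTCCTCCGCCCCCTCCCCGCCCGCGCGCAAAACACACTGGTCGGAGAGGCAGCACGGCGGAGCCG
Foxj3: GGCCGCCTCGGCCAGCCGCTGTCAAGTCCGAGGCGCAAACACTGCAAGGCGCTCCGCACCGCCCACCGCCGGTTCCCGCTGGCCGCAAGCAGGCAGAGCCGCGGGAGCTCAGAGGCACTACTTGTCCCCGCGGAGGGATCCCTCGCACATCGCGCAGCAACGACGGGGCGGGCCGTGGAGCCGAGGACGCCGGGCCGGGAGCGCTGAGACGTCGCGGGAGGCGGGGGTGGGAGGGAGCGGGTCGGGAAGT
Foxo3: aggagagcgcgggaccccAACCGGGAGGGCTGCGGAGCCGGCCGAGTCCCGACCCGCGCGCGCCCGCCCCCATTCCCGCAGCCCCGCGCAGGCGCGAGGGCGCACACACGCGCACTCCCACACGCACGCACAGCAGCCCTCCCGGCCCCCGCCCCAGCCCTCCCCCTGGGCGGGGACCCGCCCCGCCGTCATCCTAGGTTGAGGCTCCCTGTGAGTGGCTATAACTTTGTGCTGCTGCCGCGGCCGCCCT

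Peaks of both lists covered 124 of the 250 bases at Foxd1, 232 at Foxo3 and all 250 at Foxd2 and Foxj3. The GC content of the windows was 57.2% at Foxd1, 64.4% at Foxd2, 74.4% at Foxj3 and 76.4% at Foxo3. The windows were searched on both strands for the forkhead core TGTTTAC, its variant TGTTTGC, the GLI core GACCACCCA, the GATA core AGATAA and the E-box CANNTG. The Foxj3 window held TGTTTGC once, on the minus strand at bases 35 to 41 counted from its 5′ end, and 3.96% of 21045 promoter windows of protein-coding genes held that motif. The Foxd1 window held 1 E-box, and 62.8% of all windows held at least 1. No other match occurred in the 4 windows. Across all windows, 2.64% held the forkhead core, 0.162% the GLI core and 8.84% the GATA core.

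Foxd1 had 4 restricted peaks, all of the pSHF list. Its promoter peak reached a fold enrichment over background of 7.44 in the pSHF list (−log10 q 14.5) and 5.83 in the HT list (7.46). Fold enrichment, as a ratio, and q are the values of the authors' peak caller and rank peaks within their own list. All assigned shared peaks had a median fold of 5.60 in the pSHF list and 7.10 in the HT list. Folds of both lists given side by side are thus not a measure of a difference between the tissues. The strongest pSHF-restricted peak of Foxd1, at chr13:98365964-98366315, lay 9.34 kb from the gene with a fold enrichment of 5.54. The others lay 0 bp, 35.1 kb and 74.5 kb from the gene, at 3.53, 3.55 and 4.08. Those at 0 bp and 35.1 kb had a shared HT peak within 1 kb.

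At Foxd2 there were 5 restricted peaks, all of the pSHF list and all on the side of lower coordinate. The strongest, at chr4:114870232-114870482, lay 36.0 kb from the gene with a fold enrichment of 6.47 and ranked 452nd of all pSHF-restricted peaks. A pair at 62.6 and 63.5 kb reached 4.19 and 5.54, and 2 weaker peaks lay at 3.22 kb (3.60) and 36.2 kb (3.84). The pair lay on either side of a shared peak, 62.9 kb from the gene in the pSHF list and 62.8 kb in the HT list. Both peaks of the pair were thus within 1 kb of an HT peak. Its promoter peak reached 6.84 in the pSHF list and 7.02 in the HT list. A further 4 pSHF-restricted peaks had Foxd2 as the nearest gene at 109 to 126 kb, beyond the limit. Foxd4 had 1 shared peak, at 13.1 kb from the gene in the pSHF list (4.06) and 13.2 kb in the HT list (9.77).

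Foxe3, a lens factor gene that lies 15.5 kb from Foxd2, had a pair of pSHF-restricted peaks inside the gene (4.48 and 4.35), 254 bp apart, and no other peak. Foxd2 and Foxe3 together thus held 7 restricted peaks of the pSHF list and 0 of the HT list. Because the genes are neighbours, their peaks are not separate instances. Foxe1, a thyroid factor gene, had 1 peak, HT-restricted, at 11.4 kb with a fold enrichment of 3.84.

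At the FoxB genes, best known from the developing brain, 5 restricted peaks belonged to the pSHF list and 1 to the HT list. Foxb1 accounted for 4 of the 5 and had no peak in the HT list, where the nearest peak lay 228297 bp away, at Bnip2. The 4 peaks were of moderate strength, with fold enrichments of 3.83 inside the gene, 4.74 at 44.4 kb, 3.90 at 69.7 kb and 4.82 at 75.6 kb. With genes of any type, 3 of the 4 went to the lncRNA gene Gm31469, and the FoxB difference of 4 became 0. It was also 0 with peaks under a −log10 q of 5 removed and with restricted peaks below the median fold removed. Foxb2 had 1 restricted peak in each list (3.77 in the pSHF and 3.75 in the HT list) and 1 shared peak inside the gene (2.97 and 4.07).

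The FoxI genes, which act in the inner ear, in acid-secreting cells and in placodes, were balanced. Foxi1 had 1 restricted peak in each list. Foxi2 had 2 shared peaks and Foxi3 had 3 in each list, with no restricted peak. The strongest shared peak of Foxi2 reached 10.4 in the HT list and 3.47 in the pSHF list. Foxh1, the partner of Smad proteins in Nodal signaling, had 1 shared HT peak over a gene end (10.1), whose pSHF partner (8.40) lay nearer to Ppp1r16a.

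Among the FoxJ genes, Foxj1 and Foxj2 had restricted peaks of the pSHF list alone and Foxj3 of the HT list alone. Foxj1, the regulator of motile cilia, had 2 pSHF-restricted peaks 11.3 and 11.6 kb away (3.96 and 5.18) and a shared peak over a gene end (6.75 in the pSHF list, 10.1 in the HT list). Foxj3 had 6 restricted peaks, all of the HT list. They reached 3.29 to 4.96, with 3 inside the gene and 3 in a row between 2103 and 2791 bp past an end. None was as high as the median fold of the HT list (5.49), and with peaks under a −log10 q of 5 removed from both lists the HT list had 1 more at Foxj3. The promoter peak of Foxj3 was shared, at 7.63 in the pSHF list and 8.45 in the HT list. Foxj2 had 1 pSHF-restricted peak (3.77) and, inside the gene, the strongest shared HT peak of all 33 genes (13.7, against 6.83 at its pSHF partner).

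**Figure D2:**
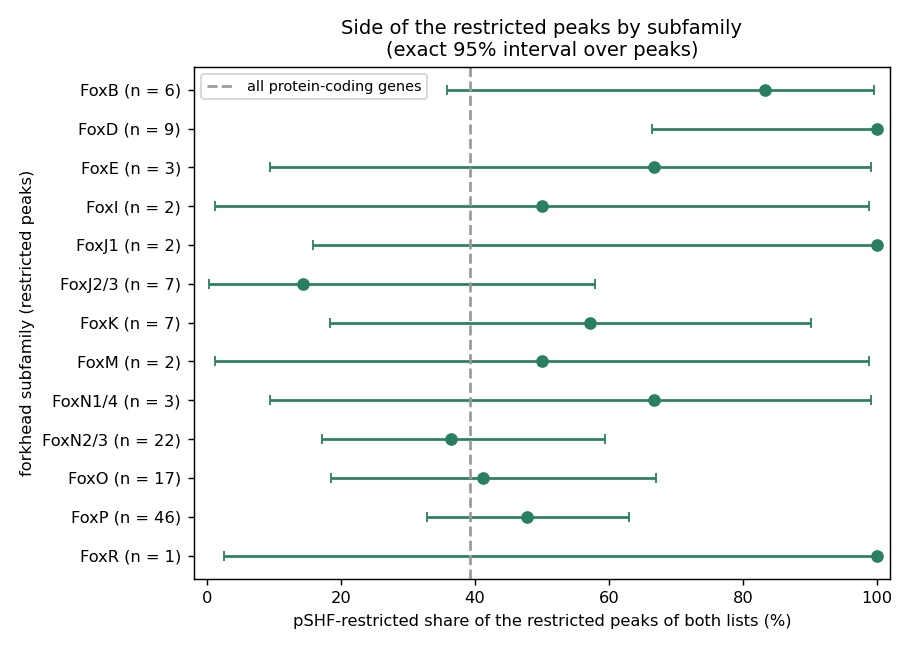
Share of pSHF-restricted peaks among the restricted peaks of both lists, in %, for each forkhead subfamily that had any. Points are shares with exact 95% intervals over peaks, and n is the number of restricted peaks. The dashed line is the 39.3% of all protein-coding genes, and the FoxD interval (66.4 to 100) lies above it. The intervals treat peaks as independent, although restricted peaks can be close neighbours, with a smallest gap of 62 bp at Foxd2. They are thus not a test of any subfamily. Foxd3, which had an HT-restricted peak and no pSHF-restricted peak, was counted with the other forkhead genes and is not in the FoxD point.

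The FoxK genes, known for holding back autophagy genes, and Foxm1 were nearly even. Foxk1 had 2 restricted peaks in each list and 6 shared peaks in each. The pSHF-restricted peaks of Foxk1 reached 4.31 and 2.83, the HT-restricted peaks 4.92 and 3.27, and its strongest shared peak 11.4 in the HT list and 6.93 in the pSHF list. Foxk2 had 2 restricted peaks of the pSHF list (3.82 and 3.74) and 1 of the HT list (3.24), beside a shared promoter peak that reached 7.24 in the pSHF and 11.96 in the HT list. Foxm1, which drives genes of mitosis, had 1 restricted peak in each list, toward opposite ends of the gene (4.18 in the pSHF list and 4.26 in the HT list). Further peaks over the end of Foxm1 lay nearer to the overlapping gene Rhno1 (5.93 in the pSHF list and 8.84 in the HT list).

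Foxn1, the thymic epithelium factor, had 2 weak pSHF-restricted peaks inside the gene (3.48 and 3.12) and no other peak, and Foxn4, a factor of retinal progenitors, had 1 HT-restricted peak (4.49). Of the restricted peaks at Foxn2 and Foxn3, 8 belonged to the pSHF list and 14 to the HT list. Foxn2 had 1 pSHF-restricted peak (3.77) and 4 HT-restricted peaks, the strongest of which (6.94) lay 18.8 kb from the gene at chr17:88509228-88509458. Its strongest shared peak, 136 bp from a gene end in the HT list, reached 7.10 in the pSHF list and 9.41 in the HT list.

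Foxn3, first described as a checkpoint suppressor gene, carried restricted peaks of the lists in different stretches of its 374 kb. There were 10 of the HT list and 7 of the pSHF list, but by nearest gene end in place of gene body the pSHF list had 2 more. Foxn3 overlaps another protein-coding gene, Gm51999. Inside the gene, 9 HT-restricted peaks lay within a stretch of 119 kb, from 77.9 to 196 kb past the end of lower coordinate. With genes of any type, 3 of these 9 went to the lncRNA gene 3300002A11Rik. Some pSHF-restricted peaks of Foxn3 then went to the lncRNA genes 4930474N09Rik and Gm40554. Of the 7 pSHF-restricted peaks, 0 fell in that stretch and all lay to either side of it. This arrangement was noticed after the positions were seen. The 3 strongest HT-restricted peaks of the stretch reached 9.64 at chr12:99274694-99275039, 9.57 at chr12:99331665-99331899 and 9.01 at chr12:99386313-99386661. The last of these was above 95.2% of all HT-restricted peaks. The tenth HT-restricted peak lay 46.2 kb outside the gene and reached 8.23. The strongest pSHF-restricted peak of Foxn3 reached 5.53, above 89.5% of all pSHF-restricted peaks. A −log10 q of at least 5 was reached by 8 of the 10 HT-restricted and 1 of the 7 pSHF-restricted peaks.

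**Figure D3:**
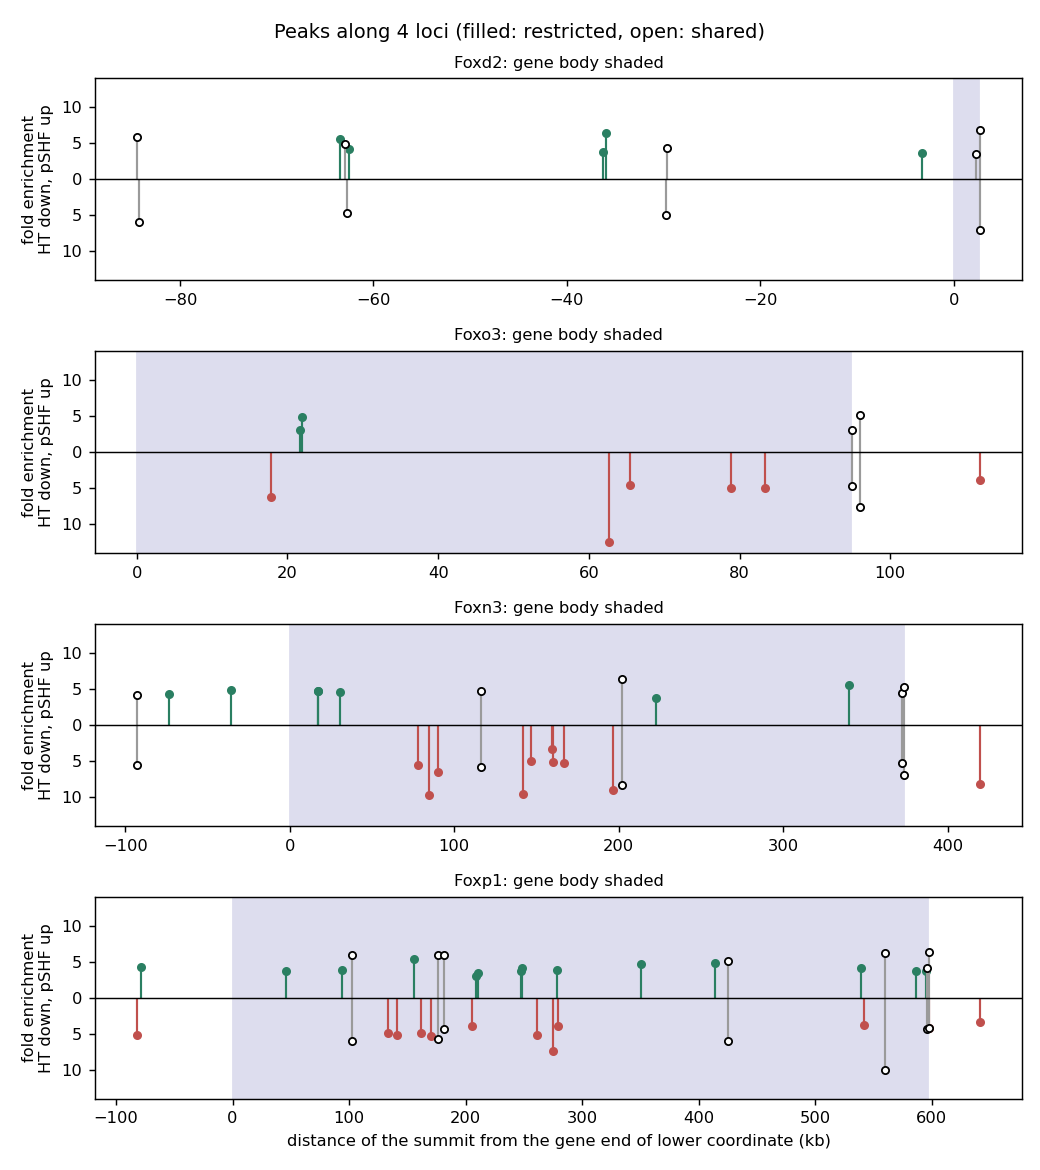
Peaks along Foxd2, Foxo3, Foxn3 and Foxp1, with the distance of each summit from the gene end of lower coordinate in kb on the x axis and the fold enrichment on the y axis, pSHF upward and HT downward. Filled points are restricted and open points shared peaks, and in Foxn3 the filled HT points between 77.9 and 196 kb stand where no filled pSHF point does.

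The FoxO genes held 17 restricted peaks, 7 of the pSHF and 10 of the HT list, and the 4 genes did not lie on the same side. Within 500 kb the pSHF list had 2 more at these genes. At Foxo3, 6 belonged to the HT and 2 to the pSHF list. The HT-restricted peaks of Foxo3 included the strongest HT-restricted peak of all 33 genes, at chr10:42244471-42244741 inside the gene, at 12.4-fold over background (−log10 q 28.8). It ranked 174th of all HT-restricted peaks. The other 5 reached 3.90 to 6.15. The pSHF-restricted peaks of Foxo3, at 3.13 and 4.89, were 143 bp apart inside the gene. Its promoter peak was shared and below the median of either list (4.85 in the pSHF, 5.49 in the HT list), at 3.09 in the pSHF and 4.74 in the HT list, and a second shared peak 1.1 kb from the gene reached 5.13 and 7.61.

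Foxo1, which is needed for the embryonic vasculature, had 5 restricted peaks of the pSHF list and 3 of the HT list. The order did not hold with genes of any type, when all 5 went to lncRNA genes or a pseudogene and the HT list had 1 more, and within 50 kb the numbers were equal. All 5 pSHF-restricted peaks lay outside the gene, at 25.8 to 80.9 kb, and the strongest reached 5.04. The HT-restricted peaks reached 3.67 to 4.30. Its promoter peak was shared at 6.66 in the pSHF list and 9.19 in the HT list. Beyond the limit of 100 kb, a further 7 pSHF-restricted and 2 HT-restricted peaks had Foxo1 as their nearest gene. Foxo4 had shared peaks alone, 3 in the pSHF list and 2 in the HT list. Foxo6 had 4 shared peaks in each list and 1 HT-restricted peak (4.73), and its shared peak near a gene end reached 9.09 in the pSHF list, the highest fold enrichment of the 130 pSHF peaks.

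The FoxP genes held the most restricted peaks, 22 in the pSHF and 24 in the HT list, over a stretch of 1609 kb. By nearest gene end the pSHF list had 1 more. Foxp1, whose loss in mice gives defects of the heart's septa and outflow tract, had 14 restricted peaks of the pSHF list, 12 of the HT list and 7 shared peaks in each. The pSHF-restricted peaks of Foxp1 had a median of 3.91 (range 3.06 to 5.43), below the 4.30 of all assigned pSHF-restricted peaks. The HT-restricted ones had 4.90 (3.29 to 7.35), close to the 4.81 of theirs. The strongest HT-restricted peak of Foxp1 lay inside the gene at chr6:99200534-99200901. With all peaks under a −log10 q of 5 removed from both lists, Foxp1 had 2 more restricted peaks in the HT than in the pSHF list.

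Foxp2, known for its roles in the brain and in lung epithelium, had 4 restricted peaks of the pSHF list and 8 of the HT list. The few pSHF-restricted peaks stood high within their list, with a median of 5.30 against 4.30, and the HT-restricted peaks below the middle of theirs, with 4.42 against 4.81. The pSHF-restricted peaks of Foxp2 included the strongest of the 65, at chr6:15405033-15405264, at 6.94 and rank 308 of all pSHF-restricted peaks, and another at 5.92. The strongest HT-restricted peak reached 6.03. Among restricted peaks not below the median of their list, Foxp2 had 1 more in the pSHF, and with peaks under a −log10 q of 5 removed it also had 1 more there. Foxp4, expressed in foregut endoderm and heart, had 4 restricted peaks in each list and 7 shared pSHF and 8 shared HT peaks. Its HT-restricted peaks reached 3.30 to 6.98 and its pSHF-restricted peaks 3.58 to 4.38. The promoter peak of Foxp4 was shared, at 6.50 in the pSHF and 9.95 in the HT list.

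Foxa3, Foxp3 (the regulatory T cell factor), Foxr1 and Foxs1 had no peak assigned in either list, 12.1% of the 33 genes against 24.7% of all protein-coding genes. Their assigned stretches were short, at 14, 18, 21 and 10 kb. A peak of each list nevertheless lay 498 bp (pSHF) and 515 bp (HT) from the end of Foxa3, the endodermal FoxA gene, and were assigned to Sympk. Foxr2 had 1 pSHF-restricted peak (3.23) that reached into the bases before an annotated start, and no HT peak.

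**Figure D4:**
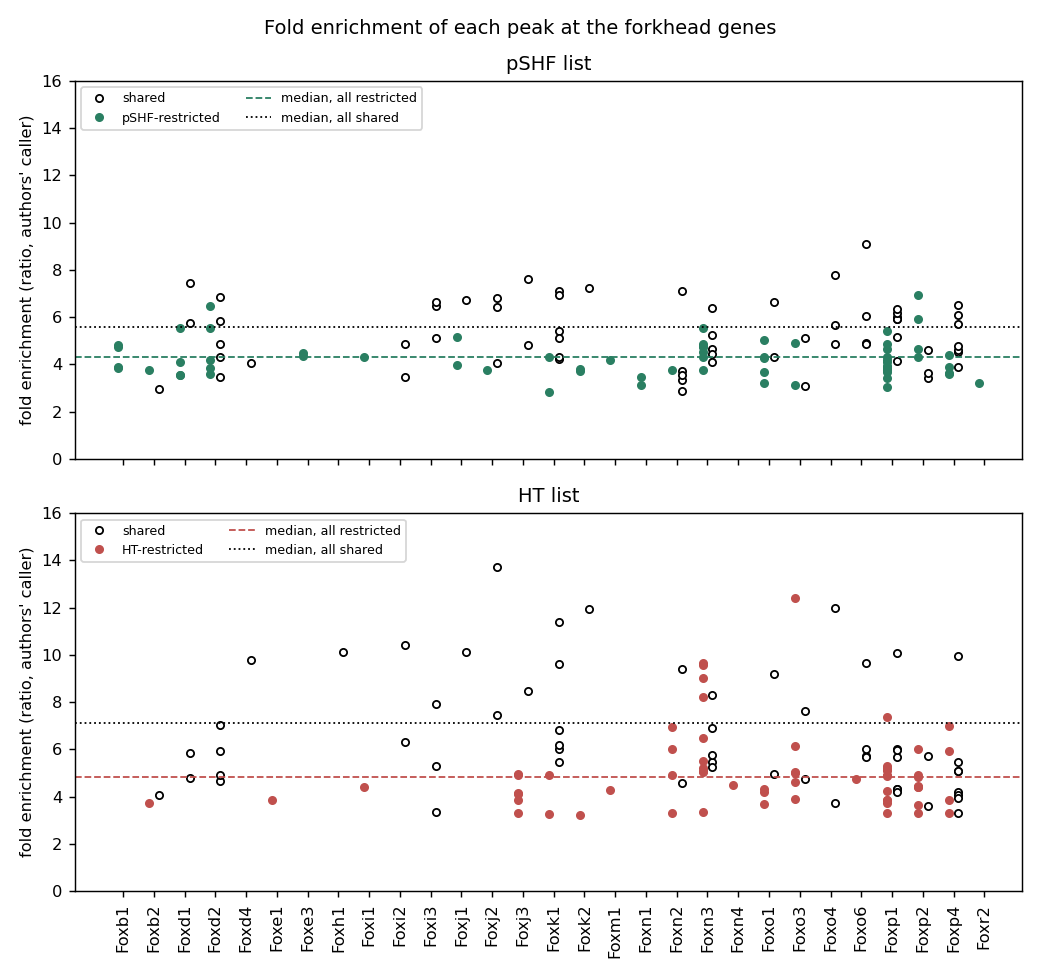
Fold enrichment of every peak at the 29 forkhead genes with a peak, as a ratio from the authors' caller, in the pSHF list (upper panel) and the HT list (lower panel). Filled points are restricted and open points shared peaks, lines are the medians of all assigned restricted and shared peaks of that list, and the highest filled point is the Foxo3 peak at 12.4.

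The peaks of the forkhead genes were close to the medians of their lists or below them. The median fold enrichment of the pSHF-restricted peaks was 4.08 (quartiles 3.75 and 4.67), against 4.30 for all assigned pSHF-restricted peaks. For the HT-restricted peaks it was 4.79 (3.86 and 5.22), against 4.81. Shared peaks had medians of 5.12 in the pSHF list and 5.83 in the HT list, where all assigned shared peaks had 5.60 and 7.10. The median fold of the whole list was reached by 18.5% of the pSHF-restricted peaks, against 27.3% around all genes, and by 22.6% of the HT-restricted peaks, against 29.3%. A −log10 q of at least 5 was reached by 9 of the 65 pSHF-restricted peaks (13.8%, against 15.5% of all) and 21 of the 62 HT-restricted peaks (33.9%, against 40.7%). Gene ends had 9.23% of the pSHF-restricted and 9.68% of the HT-restricted peaks within 1 kb, against 13.6% and 10.1% around all genes. Inside genes lay 49.2% of the pSHF-restricted and 64.5% of the HT-restricted peaks, against 51.8% and 56.1%. Shared peaks at the forkhead genes lay near a gene end in 43.1% of the pSHF list and 40.7% of the HT list, against 50.1% and 48.6% around all genes. A peak of the other list lay within 1 kb of 12 of the 65 pSHF-restricted and 7 of the 62 HT-restricted peaks.

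The promoter table held 25 start sites of 22 of the genes. A pSHF peak touched the 250 bases before 12 of the 25 (48.0%) and an HT peak 11 (44.0%), against 54.2% and 54.8% of 21045 windows of protein-coding genes. At 11 of the 25 a shared peak touched the window, and the window of Foxr2 was touched by a pSHF-restricted peak alone. A Foxp1 window with a shared peak was touched by a pSHF-restricted peak (3.75) as well. No window of the 25 had an HT peak alone.

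The pSHF-restricted share of the restricted peaks was highest at the genes under 10 kb. The 15 genes under 10 kb had 19 restricted peaks of the pSHF list and 3 of the HT list, so that 86.4% were pSHF-restricted, against 42.0% around all protein-coding genes of that length. Among these 15 genes the pSHF was ahead at Foxb1, Foxd1, Foxd2, Foxe3 and Foxj1 and the atria at Foxe1. With genes of any type, the difference (pSHF minus HT) was 1 at Foxb1, 2 at Foxd1 and Foxe3, and 0 at Foxd2 and Foxj1. It was then -1 at Foxb2, Foxi1 and Foxe1, so the excess at these short genes depended on the assignment. The 15 genes of 10 to 100 kb had 21 and 29 (42.0% pSHF-restricted, against 37.0%), and the 3 genes over 100 kb, Foxn3, Foxp1 and Foxp2, had 25 and 30 (45.5%, against 41.1%). The limits of length were set after the values were seen, and no test was made.

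The gene lists are read against the 39.3% of restricted peaks around all protein-coding genes that were pSHF-restricted. Over 12 genes of the insulin and PI3K-Akt pathway 18 restricted peaks were of the pSHF list and 43 of the HT list (29.5% pSHF-restricted). The atria were ahead at 9 genes, the pSHF at 0, and 3 were equal. Of all protein-coding genes, 29.3% and 15.0% lie on those sides, but 24.7% had no peak, while all 12 had one in each list. Among all genes over 100 kb the atria were ahead at 53.8%, so this background is not matched to the 12. Igf1r, an insulin-like growth factor receptor gene, had 3 in the pSHF list and 9 in the HT list, and the adaptor gene Irs1 had 0 and 4. Markers of endothelium (7 and 24), atrial cardiomyocytes (2 and 23), erythroid cells (0 and 11) and neural tube (3 and 7) lay on the same side. Their part in these counts was not tested. The other lists held few peaks or lay near that share. FoxO target genes had 11 and 15 over 9 genes (42.3%), with 2 ahead in the pSHF and 3 in the atria. Bcl6 had 0 and 3, and Cdkn1b, the cell cycle inhibitor gene, had 1 of each. FoxM1 target genes had 2 and 5 over 9 genes (28.6%), and 7 of the 9 were equal. Foxh1 partners and targets had 4 and 9 over 8 genes (30.8%), among them Smad2 and Smad4 with 0 and 3 each. Motile cilia genes had 9 and 18 over 10 genes (33.3%), with Rfx3 at 1 and 4. The share was near the background, but the atria were ahead at 6 of the 10 genes and the pSHF at 2.

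The 10 other forkhead genes (Foxa1, Foxa2, Foxc1, Foxc2, Foxd3, Foxf1, Foxf2, Foxl1, Foxl2 and Foxq1) held 22 restricted peaks of the pSHF list and 11 of the HT list. Of these, 66.7% were pSHF-restricted, against 51.2% at the 33 genes described here. Foxf1, counted above among the posterior second heart field genes, had 7 and 1. The pSHF was ahead at 5 of the 10 genes and the atria at 1, Foxd3, while 4 were equal. Of the HT peaks, 44.0% were restricted at the 10 genes (24.4 to 65.1) and 51.2% at the 33 genes. Of the pSHF peaks, 61.1% were restricted at the 10 genes (43.5 to 76.9), where 65 of the 130 were at the 33 genes. These differences were not tested. The limit of 100 kb left out 15 pSHF and 3 HT peaks whose nearest gene was a member. The farthest peaks inside the limit were the shared peaks 93.0 kb from Foxn3. The nearest outside were a pSHF-restricted peak 109 kb from Foxd2 (5.45) and an HT-restricted peak 101.6 kb from Foxo1 (4.39).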

How the data were processed

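ATAC-seq peaks of pSHF and atria were analysed, with 3 samples behind each tissue's list. Per the submitters' processing notes, Bowtie2 2.3.2, SAMtools 1.5, Picard and MACS2 2.1.1 were used with build mm10. Tool settings, and any pooling of samples ahead of peak calling, were not given in the sources used here. Both deposited narrowPeak lists (60223 HT and 58887 pSHF lines) hold a score, a fold enrichment ratio and a −log10 q value for each summit, by the column order of that format. The lowest deposited −log10 q was 1.31 in HT and 1.30 in pSHF.

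Lines of equal interval were merged, keeping the summit of highest fold. Genes came from RefSeq GRCm38.p6, without strand or exons, on the 19 autosomes and X. All 33 genes matched by symbol. A summit inside several genes went to the gene with the closest end. Overlap and assignment were checked on simulated intervals. Python 3.11.15, pandas 2.3.3 and scipy 1.17.1 were used. The 33 genes, the gene lists and the comparisons were chosen with earlier results of these data known. Genes were described in full if they had 3 or more restricted peaks of both lists together or a difference of 2 or more, and 16 were. Peak sequences were not analysed here, since no genome sequence was used. Alternatives covered the overlap rule, strength, distance, gene assignment and the gene with most peaks. Some genes of the comparison lists are not reported here and were left out of their counts.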

Additional observations from a re-analysis of the deposited data

How the results depend on the processing

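No paired analysis was possible because each tissue has 1 peak list without values per replicate, and no replicate could be left out for the same reason. Of the 20 totals under the 10 alternatives, 15 stayed within 1.5 times the main counts of 65 pSHF-restricted and 62 HT-restricted peaks. At a −log10 q of at least 5 there were 14 and 32, because peaks whose partner fell below that value then count as restricted and weak peaks are dropped. With restricted peaks kept only where not below their list's median fold there were 12 and 14. With the nearest gene of any type in place of the nearest protein-coding gene, 40 pSHF-restricted peaks were left (51 HT-restricted), since lncRNA genes and pseudogenes took the others. By subfamily, the difference between pSHF-restricted and HT-restricted peaks was at FoxD 9 in the main count, 10 with reciprocal overlap of at least 50%, 12 within 500 kb, 5 with no peak of the other list within 1 kb, 4 at a −log10 q of 5 or more, 3 with the cutoff at the median fold and 2 with genes of any type, when 7 of the 9 peaks went to neighbouring noncoding genes. At FoxB it was 4, and 0 under each of the last 3 of these settings. It was -2 at FoxI at a −log10 q of at least 5, from 0. It changed sign at FoxO within 500 kb (2, from -3), at FoxP by nearest gene end (1, from -2), at FoxE without peaks at gene ends (-1, from 1) and at FoxK at a −log10 q of at least 5 (-2, from 1). By gene it changed sign at Foxn3 by nearest gene end (2, from -3), at Foxo1 with genes of any type (-1, from 2), at Foxp1 at a −log10 q of at least 5 (-2, from 2) and at Foxp2 at that value (1, from -4) and with the cutoff at the median fold (1). Of 118 differences by subfamily under the alternatives, 112 stayed within the counting interval of the main value, and of 216 by gene, 205 did. At counts this small the intervals are wide, so these numbers do not measure how stable the differences were. The 112 include the sign changes at FoxE and FoxK and the falls at FoxB from 4 to 0. Depth is not given in the files, so no limit on undetected partners of restricted peaks can be set.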
